A study of Mus musculus with 6 samples.

Results

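The genes examined here form the anti-Müllerian hormone (AMH), inhibin and activin system of the ovary. They are 10 genes listed by symbol for their place in this system, by a rule with no threshold on measured values: the ligand Amh and its receptor Amhr2, the inhibin and activin subunits Inha, Inhba and Inhbb, the binding proteins Fst and Fstl3, and the activin receptors Acvr2a, Acvr2b and Acvr1b. All 10 were found among the 44788 genes listed in the count table. Whole ovaries of 8-week-old mice on a C57BL/6 J background were compared, 3 from wild-type (Bnc1+/+) mice and 3 from Bnc1tr/tr mice. Bnc1tr/tr mice carry on each allele a small deletion in Bnc1, the gene of the zinc finger factor basonuclin 1, which shifts the reading frame and truncates the protein in every cell of the animal. The mice of this study model primary ovarian insufficiency, the early loss of ovarian function. The methods of the study give littermates as the basis of its comparisons. The labels tie no ovary to a litter and do not say in which phase of the estrous cycle the mice were, or whether a sample was 1 ovary or several. P values therefore measure the spread between these samples.

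AMH is a secreted factor of the granulosa cells of growing follicles. It restrains the recruitment of primordial follicles and the response of small follicles to follicle-stimulating hormone, and its serum level is used as a measure of the growing follicle pool. It signals through its own type II receptor AMHR2 with type I receptors shared with bone morphogenetic proteins (BMPs), and through SMAD1, SMAD5 and SMAD9. Inhibins pair an alpha subunit (Inha) with a beta subunit (Inhba or Inhbb) and lower pituitary follicle-stimulating hormone. Activins are dimers of beta subunits, act through ACVR2A or ACVR2B with ACVR1B and then SMAD2 and SMAD3, and are bound and neutralized by follistatin (Fst) and follistatin-like 3 (Fstl3).

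The gene counts of an ovary summed to between 25247770 and 34406296, and every member of the system held at least 140 reads in every ovary. Levels are given as CPM, counts per 1000000 counts, with library sizes set by TMM, a scaling that takes most genes to be alike between libraries. Counts of 19423 genes that passed a filter on low counts, all 10 members among them, were compared with edgeR's quasi-likelihood test. Adjusted p values control the false discovery rate (Benjamini-Hochberg) across these 19423 genes, and a gene was called at 0.05. A log2 fold change above 0 means a higher level in Bnc1tr/tr ovaries, and its 95% interval was derived from the standard error of the same fit. Bnc1 itself held 375, 444 and 381 reads in Bnc1+/+ replicates 1, 4 and 7 and 527, 355 and 326 reads in Bnc1tr/tr replicates 1, 2 and 3, and counts of a whole gene cannot tell the truncated allele from the wild-type one.

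The hormone Amh and its receptor Amhr2 rose in Bnc1tr/tr ovaries, and the other 8 members did not pass the threshold. Amh was 2.09-fold and Amhr2 1.53-fold the Bnc1+/+ level. The called members were thus 2 of 10, both higher, where 7.06% of all genes tested were called, 2.88% higher and 4.19% lower. The median log2 fold change of the 10 members was 0.009, beside 0.018 over all genes tested. In whole ovaries, a different number of cells that make an RNA and a different amount of it per cell cannot be told apart.

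**Figure D1:**
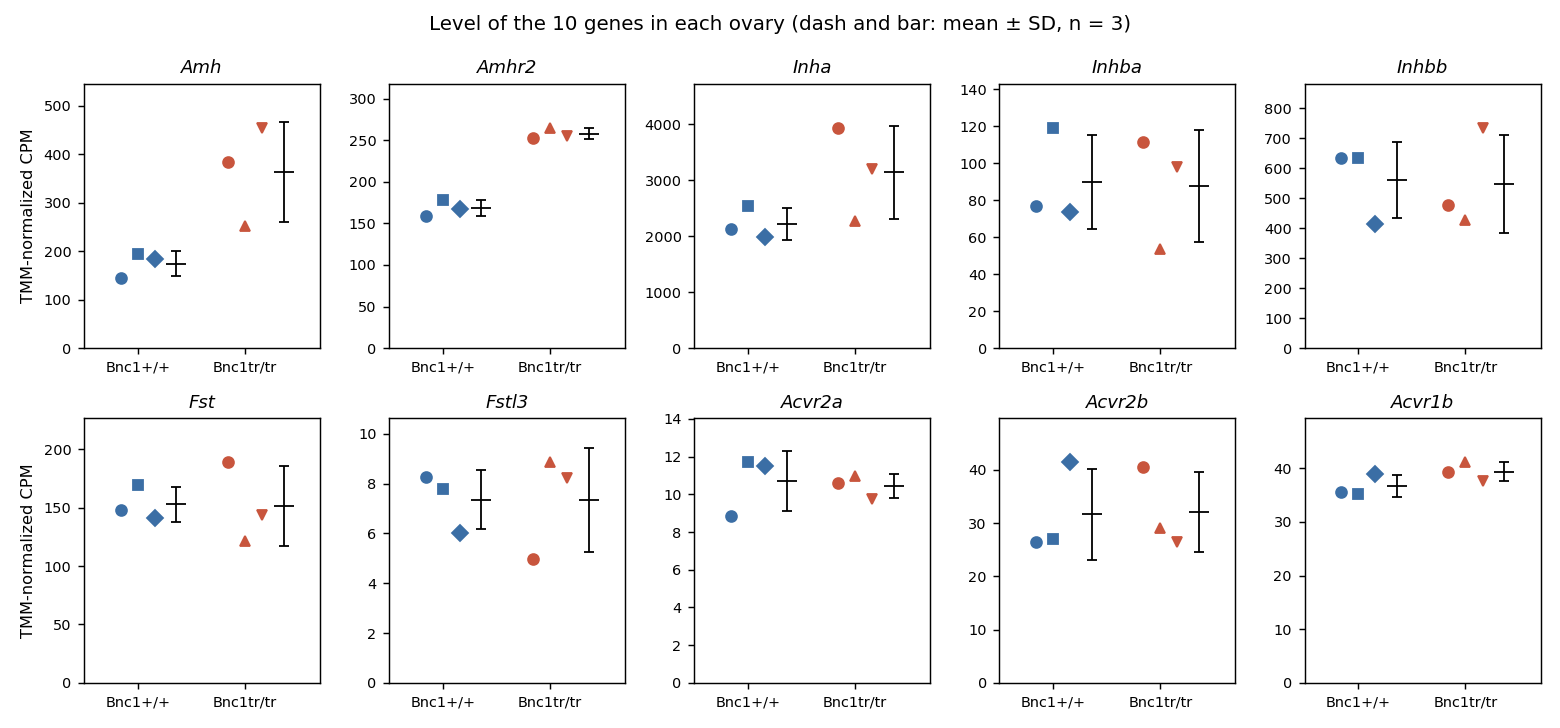
TMM-normalized CPM (vertical axes, each from 0) of the 10 members in the 3 Bnc1+/+ ovaries (blue) and the 3 Bnc1tr/tr ovaries (red). Circles are replicate 1 of each genotype, squares and diamonds Bnc1+/+ replicates 4 and 7, and upward and downward triangles Bnc1tr/tr replicates 2 and 3; the dash and bar give the mean ± SD (n = 3). The genotypes are apart for Amh and Amhr2 and overlap for the other 8 genes.

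Amh (ENSMUSG00000035262.5, chromosome 10 of GRCm38 from 80805243 to 80807648, 5 exons) was at 145, 194 and 183 CPM in Bnc1+/+ replicates 1, 4 and 7 and at 383, 252 and 455 CPM in Bnc1tr/tr replicates 1, 2 and 3. Every Bnc1tr/tr ovary lay above every Bnc1+/+ ovary, and Bnc1tr/tr replicate 2 was the lowest of its genotype. The means were 174 ± 25.7 CPM and 364 ± 103 CPM (SD, n = 3 each). On the log2 scale this was a rise of 1.06 with a standard error of 0.21 and an interval from 0.57 to 1.56 (edgeR adjusted p = 0.0294). The direction held when any 1 ovary was omitted, with log2 fold changes between 0.87 and 1.27, but the call held in 1 of these 6 fits, that without Bnc1tr/tr replicate 2 (edgeR adjusted p = 0.0115). In the other 5 fits the edgeR adjusted p was between 0.0612 and 0.105.

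Amhr2 (ENSMUSG00000023047.11, chromosome 15 from 102445367 to 102454633, 11 exons) encodes the type II receptor that binds AMH and no other known ligand. It was at 159, 178 and 167 CPM in Bnc1+/+ replicates 1, 4 and 7 and at 253, 265 and 255 CPM in Bnc1tr/tr replicates 1, 2 and 3. The genotypes did not overlap, and the ovaries of a genotype lay close together. The coefficient of variation was 2.47% in Bnc1tr/tr ovaries, below that of every other member, and 5.80% in Bnc1+/+ ovaries, where only Acvr1b was lower (5.57%). Amhr2 rose by 0.62 on the log2 scale, with a standard error of 0.08 and an interval from 0.43 to 0.80 (edgeR adjusted p = 0.0059). Amhr2 remained past the threshold in all 6 fits that left out an ovary (edgeR adjusted p from 0.0107 to 0.0381). Genes whose ovaries did not overlap between the genotypes were 2 of the 10 members, both of them higher in Bnc1tr/tr, against 30.8% of all genes tested, 15.0% higher and 15.8% lower.

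The RefSeq promoter table (GRCm38.p6) held a window for 8 of the 10 members and none for Amh and Fst. The bases that precede the Amhr2 start site are shown because Amhr2 is the called member with a window. They lie at chr15:102445117-102445366 on the plus strand, and capitals mark the letters of the motifs found.
Amhr2: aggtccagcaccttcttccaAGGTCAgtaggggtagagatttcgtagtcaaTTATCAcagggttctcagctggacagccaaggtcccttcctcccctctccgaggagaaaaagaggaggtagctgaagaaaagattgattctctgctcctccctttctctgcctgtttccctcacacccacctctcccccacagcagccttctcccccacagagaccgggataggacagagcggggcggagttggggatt
Whole windows, which also take in the first bases after the start site, were searched on both strands for 7 motifs. These were AGGTCA, a core bound by nuclear receptors such as steroidogenic factor 1, the cAMP response element TGACGTCA together with its shorter and overlapping form TGACGT, the GATA factor motif in the forms AGATAA and, differing at the outset, TGATAA, the forkhead factor motif GTAAACA, and for SMAD proteins the motif CAGACA. Amhr2 held 1 AGGTCA, present in 16.3% of all 32851 windows, and 1 TGATAA on the opposite strand, present in 9.05%. AGGTCA was also found 1 time each in the windows of Inha, whose RefSeq start site lies inside the GENCODE gene, and Fstl3, and CAGACA, present in 21.0% of all windows, 1 time in that of Fstl3. The windows of Inhba, Inhbb, Acvr2a, Acvr2b and Acvr1b held none of the 7 motifs. A match of letters is a description and not a binding site.

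Among the subunits, Inha was the most abundant RNA of the system. Inha (ENSMUSG00000032968.4, chromosome 1 from 75507077 to 75510366) encodes the alpha subunit that makes a dimer an inhibin. It was at 2120.1, 2529 and 1982 CPM in Bnc1+/+ replicates 1, 4 and 7 and at 3934, 2272 and 3200.1 CPM in Bnc1tr/tr replicates 1, 2 and 3. Of the Bnc1tr/tr ovaries, replicates 1 and 3 exceeded all Bnc1+/+ ovaries, whereas Bnc1tr/tr replicate 2 lay below Bnc1+/+ replicate 4. The log2 fold change was 0.50 with an interval from 0.04 to 0.97, and did not pass the threshold over all genes (edgeR adjusted p = 0.175). The unadjusted p was 0.0368, under 0.05 like that of 24.2% of all genes tested. Without Bnc1tr/tr replicate 2 the log2 fold change was 0.69 and Inha passed (edgeR adjusted p = 0.0484), and without any 1 of the other ovaries it did not, with log2 fold changes from 0.31 upwards.

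Neither beta subunit passed the threshold. Inhba (chromosome 13 from 16011851 to 16031621), the beta A subunit of inhibin A and activin A, was at 76.8, 119 and 73.8 CPM in Bnc1+/+ replicates 1, 4 and 7 and at 111, 53.3 and 97.8 CPM in Bnc1tr/tr replicates 1, 2 and 3. The lowest of all 6 values was that of Bnc1tr/tr replicate 2 and the highest that of Bnc1+/+ replicate 4, and the genotypes overlapped between these. The log2 fold change was -0.041 (standard error 0.29, edgeR adjusted p = 0.949), with an interval from -0.70 to 0.62. This interval takes in a rise or fall of the size seen for Amhr2, which these ovaries could not show for Inhba.

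Inhbb (chromosome 1 from 119415465 to 119422248), the beta B subunit of inhibin B and activin B, was at 633, 636 and 414 CPM in Bnc1+/+ replicates 1, 4 and 7 and at 479, 429 and 736 CPM in Bnc1tr/tr replicates 1, 2 and 3. In each genotype, 1 ovary stood away from the other ones, in opposite directions. The log2 fold change was -0.034 with an interval from -0.59 to 0.52 (edgeR adjusted p = 0.948). Bnc1tr/tr replicate 2 was the lowest of its genotype for Amh, Inha, Inhba, Inhbb and Fst, and Bnc1+/+ replicate 4 was the highest of its genotype for these 5 genes.

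Ratios between members within an ovary do not depend on how libraries are scaled, and were taken from CPM per kilobase of transcript. The log2 ratio of Inha to the sum of Inhba and Inhbb, alpha subunit RNA per beta subunit RNA, was 3.16, 3.35 and 3.63 in Bnc1+/+ replicates 1, 4 and 7 and 4.36, 3.82 and 3.53 in Bnc1tr/tr replicates 1, 2 and 3. On a linear scale the alpha subunit was thus 8.94 to 12.3 times as abundant as the beta subunits in Bnc1+/+ and 11.5 to 20.5 times in Bnc1tr/tr ovaries. The size of this ratio depends on the length used, and per kilobase of coding sequence it was 3.36 to 4.58 and 4.33 to 7.53. The values overlapped through Bnc1tr/tr replicate 3, and the means differed by 0.52 on the log2 scale (exact two-sided permutation test, p = 0.2, 0.6 after Benjamini-Hochberg adjustment over 4 ratios). With 3 ovaries against 3 this test cannot give a p below 0.1.

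The log2 ratio of Fst to the sum of Inhba and Inhbb, follistatin RNA beside that of its activin ligands, ranged from -0.28 to 0.22 in Bnc1+/+ and from -0.54 to 0.38 in Bnc1tr/tr ovaries, and per kilobase of coding sequence from -1.998 to -1.52 and from -2.27 to -1.38. The highest and the lowest of these ratios both came from Bnc1tr/tr ovaries (difference of means 0.014, exact two-sided permutation test, p = 1.0). The log2 ratio of Inhba to Inhbb averaged -3.24 ± 0.34 and -3.26 ± 0.49 for Bnc1+/+ and Bnc1tr/tr, respectively (SD, n = 3 each). An exact permutation test, two-sided, gave p = 1.0 for it. The log2 ratio of Amh to Amhr2 was 0.080, 0.33 and 0.35 in Bnc1+/+ replicates 1, 4 and 7 and 0.81, 0.14 and 1.05 in Bnc1tr/tr replicates 1, 2 and 3. Bnc1tr/tr replicate 2 thus had a hormone-to-receptor ratio within the range of the Bnc1+/+ ovaries, while the other Bnc1tr/tr ovaries lay above them. The difference of 0.42 on the log2 scale did not exceed the spread (exact two-sided permutation test, p = 0.3, adjusted p = 0.6), so a larger rise of Amh than of Amhr2 was not shown.

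**Figure D2:**
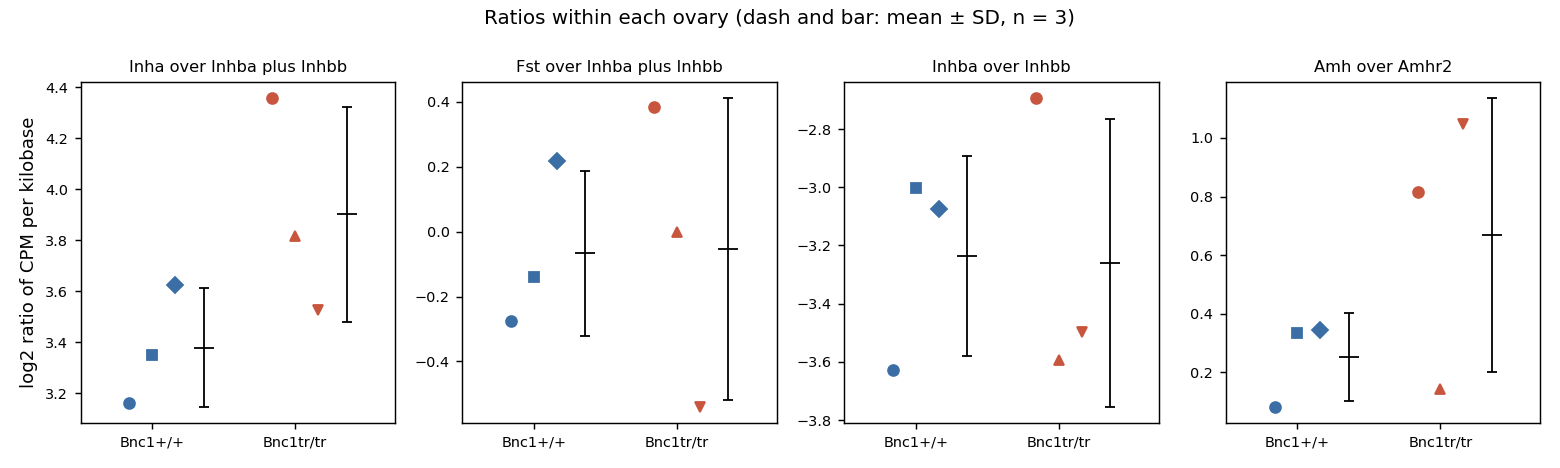
Log2 ratios of CPM per kilobase of transcript within each ovary (vertical axes) for 4 pairs of quantities, with the same symbols as in the plot of the members by ovary; the dash and bar give the mean ± SD (n = 3). The genotypes overlap in all 4 panels, and in the panel of Amh over Amhr2 the Bnc1tr/tr ovaries at 0.81 and 1.05 lie above every Bnc1+/+ ovary while the one at 0.14 does not.

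Neither binding protein passed the threshold. Fst (chromosome 13 from 114452290 to 114458951), whose product traps activins, was at 148, 169.8 and 141 CPM in Bnc1+/+ replicates 1, 4 and 7 and at 189, 122 and 144 CPM in Bnc1tr/tr replicates 1, 2 and 3. The Bnc1tr/tr ovaries held both the highest and the lowest value. The log2 fold change was -0.014 with an interval from -0.39 to 0.36 (edgeR adjusted p = 0.971). Fstl3 (chromosome 10 from 79777272 to 79782630), a related activin antagonist, was at 8.25, 7.79 and 6.04 CPM and at 4.98, 8.85 and 8.21 CPM in the same order. It had the fewest reads of the members, 140 to 258 per ovary, and its log2 fold change was -0.003 with an interval from -0.56 to 0.55 (edgeR adjusted p = 0.995).

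None of the 3 activin receptors was called by edgeR, at an adjusted or an unadjusted threshold of 0.05, nor by DESeq2 or limma-voom. Acvr2a (chromosome 2 from 48814109 to 48903269), a type II receptor, was at 8.85, 11.7 and 11.5 CPM in Bnc1+/+ and at 10.6, 10.97 and 9.73 CPM in Bnc1tr/tr ovaries (log2 fold change -0.036, interval from -0.37 to 0.30, edgeR adjusted p = 0.909). Acvr2b (chromosome 9 from 119402118 to 119434995), the other type II receptor, was at 26.4, 27.1 and 41.4 CPM in Bnc1+/+ and at 40.6, 29.1 and 26.5 CPM in Bnc1tr/tr ovaries, with 1 high ovary in each genotype (log2 fold change 0.021, interval from -0.49 to 0.53, edgeR adjusted p = 0.966). Acvr1b (chromosome 15 from 101174067 to 101213684), the type I receptor that phosphorylates SMAD2 and SMAD3, was at 35.7, 35.3 and 38.97 CPM in Bnc1+/+ and at 39.3, 41.1 and 37.5 CPM in Bnc1tr/tr ovaries. It differed by 0.10 on the log2 scale, with an interval from -0.094 to 0.30 (edgeR adjusted p = 0.507), the narrowest interval among the 8 members not called. Of the members, Inhba, Fst, Fstl3, Acvr2a and Acvr2b overlap an annotated gene on the opposite strand, and whether strand was used in the counting is not given in the sources used here. Acvr2a shares 446 bases with Orc4 in this way. Orc4 held 420 to 634 reads per ovary, beside 238 to 387 for Acvr2a. Acvr1b contains the microRNA gene Mir6962, with at most 1 read in any ovary.

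Per kilobase of transcript, Inha stood apart at 1499 ± 193 CPM per kilobase in Bnc1+/+ ovaries (SD, n = 3). Fst at 137, Inhbb at 132, Amh at 104 and Amhr2 at 86.7 CPM per kilobase followed, and the ranges of neighbours in this order overlapped. Inhba, Acvr2b and Acvr1b lay between 14.1 and 8.29 CPM per kilobase, again with overlapping neighbours, above Fstl3 at 3.77 and Acvr2a at 1.88. In Bnc1tr/tr ovaries Amh, at 218 CPM per kilobase, had the next mean after Inha at 2126, with a range that overlapped those of Fst (mean 136) and Inhbb (129) but not that of Amhr2 (133). The order depends on the transcript length used: per kilobase of coding sequence, Inhbb at 455 CPM in Bnc1+/+ ovaries lay above Fst at 149, Inhba was at 70.7 CPM, and in Bnc1tr/tr ovaries Inhbb at 444 lay above Amh at 219.

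Other genes of the pathway were read from a list of 33 ligands, receptors, SMAD proteins and targets. Of these, 30 were tested, 2 were called higher and 2 lower in Bnc1tr/tr ovaries, and 26 did not pass, with a median log2 fold change of 0.083. The share called, 4 of 30, again stands beside 7.06% of all genes tested. The activin subunits of the liver, Inhbc and Inhbe, had 0 to 2 reads per ovary, and Igsf1, which has been described as an inhibin-binding protein, had 3 to 13 reads. These 3 genes were not tested. By role, 2 of 5 genes of the ligand side, 0 of 10 of the receptor side, 1 of 12 SMAD proteins and their regulators and 1 of 3 targets were called by edgeR. On the receptor side 2 genes had an unadjusted p under 0.05, and DESeq2 called 1, Tgfbr3, and limma-voom 0.

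The genes called higher were the ligands Gdf9 and Bmp15, which oocytes secrete and to which granulosa cells respond. Bmp15 was at 30.6, 29.2 and 25.9 CPM in Bnc1+/+ replicates 1, 4 and 7 and at 66.9, 41.4 and 54.5 CPM in Bnc1tr/tr replicates 1, 2 and 3 (log2 fold change 0.93, edgeR adjusted p = 0.0204). Gdf9 rose from 170.2 ± 27.2 to 292 ± 63.4 CPM (SD, n = 3 each), a log2 fold change of 0.78 (edgeR adjusted p = 0.0458). As for Amh, Bnc1tr/tr replicate 2 was the lowest of its genotype for both. Without single ovaries the calls were mostly lost, with Gdf9 past the threshold in 1 of 6 fits and Bmp15 in 2 of 6 (edgeR adjusted p up to 0.158 and 0.101).

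The genes called lower were Smad1, a SMAD protein that AMH and BMP receptors phosphorylate, and Id1, a transcriptional target of that branch. Smad1 was at 76.2, 84.2 and 91.9 CPM in Bnc1+/+ replicates 1, 4 and 7 and at 42.9, 41.6 and 44.5 CPM in Bnc1tr/tr replicates 1, 2 and 3. The genotypes were far apart and the Bnc1tr/tr ovaries nearly alike (log2 fold change -0.97, standard error 0.092, edgeR adjusted p = 0.0023), and Smad1 was called under all 14 alternatives. Id1 fell from 33.9 ± 1.90 to 23.1 ± 1.15 CPM (SD, n = 3 each), a log2 fold change of -0.55 (edgeR adjusted p = 0.0134), and was called in 3 of 6 fits that left out an ovary. Endothelial cells also express both genes, and the endothelial markers Pecam1, Cdh5, Kdr and Tek fell in the same ovaries. These were 4 called of 5 listed, where 4.19% of all genes tested were called lower. The 5 markers had a summed level of 440.1 to 554 CPM in Bnc1+/+ and 278 to 322 CPM in Bnc1tr/tr ovaries. The part of endothelial cells in the change of Smad1 and Id1 was not tested.

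No other gene of the list was called by edgeR, whereas DESeq2, which called 12.5% of all genes tested, also called Tgfbr3, Smad6, Ski, Skil and Id2. Tgfbr3, which encodes betaglycan, the co-receptor that gives inhibin its grip on ACVR2, had a log2 fold change of 0.43 with an interval from 0.12 to 0.73 (edgeR adjusted p = 0.0991, DESeq2 adjusted p = 0.042). Smad6, an inhibitory SMAD protein of the BMP branch, was at 16.1 ± 3.03 CPM in Bnc1+/+ and 24.6 ± 4.88 CPM in Bnc1tr/tr ovaries with no overlap (SD, n = 3 each, log2 fold change 0.61, edgeR adjusted p = 0.089, DESeq2 adjusted p = 0.0267). Ski and Skil, which repress SMAD-driven transcription, also did not overlap between the genotypes, with log2 fold changes of 0.38 and -0.68. Of the 30 list genes tested, 11 did not overlap, 6 higher and 5 lower, beside 30.8% of all genes tested. Smad9, the third SMAD protein of the AMH branch, had -0.45 with overlapping ovaries (edgeR adjusted p = 0.207). Smad5, a partner of SMAD1, had -0.075, and Smad2, Smad3 and Smad4, which carry the activin signal, had -0.099, 0.084 and 0.081. Bmpr2 (0.17), Bmpr1a (-0.007), Bmpr1b (0.57) and Acvr1 (0.13), receptors of the BMP branch, and the target Id3 (0.29) are given on the same log2 scale. Bmpr1b was at 132 CPM in Bnc1tr/tr replicate 1 and at 58.6 and 69.5 CPM in Bnc1tr/tr replicates 2 and 3 (edgeR adjusted p = 0.262). The target Id2 had -0.75 with no overlap (edgeR adjusted p = 0.0938, DESeq2 adjusted p = 0.0113). The remaining abundant genes of the list were Furin, a protease that matures these ligands (-0.21), and Fstl1, a follistatin-related protein (-0.24).

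**Figure D3:**
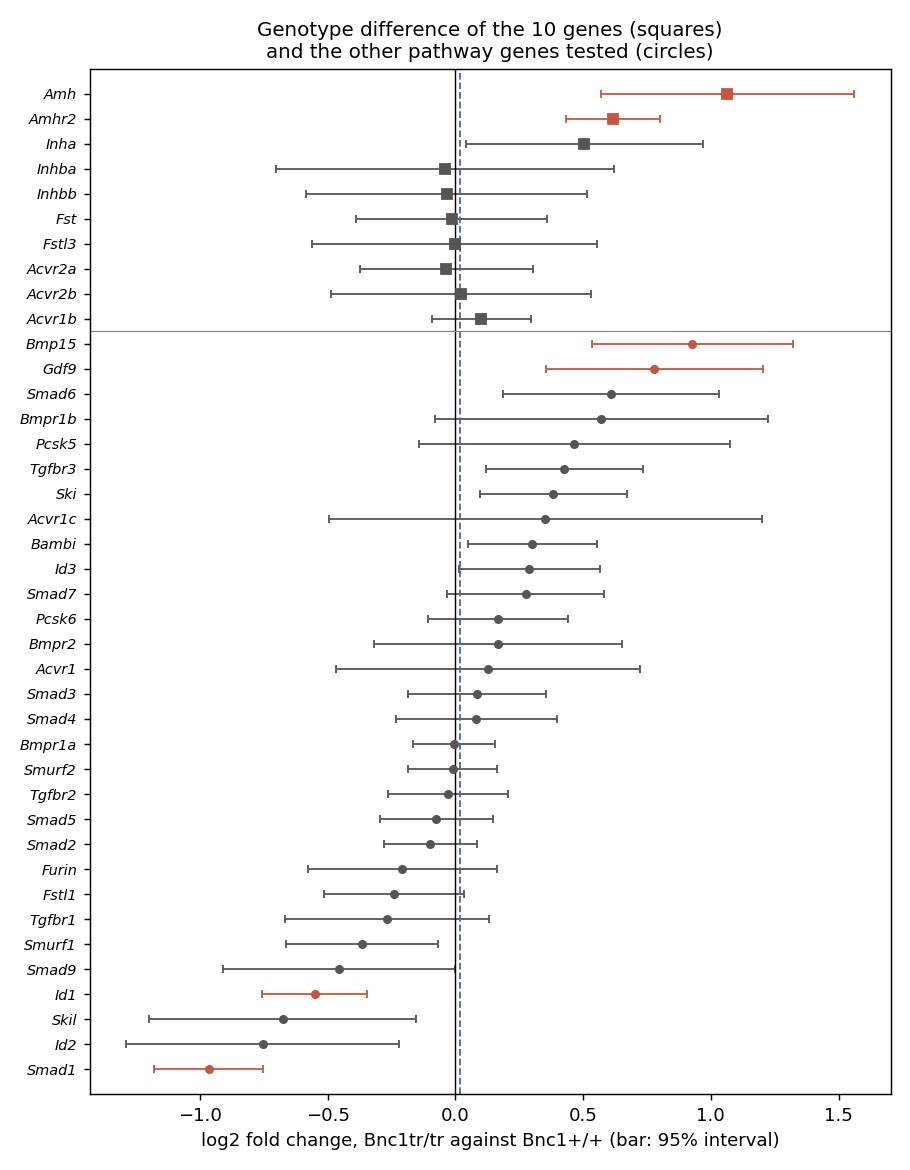
Log2 fold change of Bnc1tr/tr against Bnc1+/+ ovaries (horizontal axis) with its 95% interval for the 10 members (squares, upper part) and the 30 other pathway genes tested (circles, sorted). Genes with an adjusted p under 0.05 are red, the solid line is 0 and the dashed line the median of all genes tested at 0.018; Amh and Amhr2 lie to the right of both lines with their whole intervals, as do the red oocyte ligands Bmp15 and Gdf9, and Smad1 and Id1 to the left.

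Since Amh and Amhr2 are made by granulosa cells, levels of cell type markers are given beside them. Of 13 granulosa cell markers, none of them a member and all with at least 272 reads in every ovary, 1 was called by edgeR, higher, and 3 by DESeq2, all higher. Of all genes tested, edgeR called 7.06% and DESeq2 12.5%. The granulosa marker called by edgeR was Slc18a2, at 95.3 ± 6.39 and 161 ± 2.22 CPM (SD, n = 3 each, edgeR adjusted p = 0.0034). DESeq2 added Esr2, an estrogen receptor, and Serpine2, a protease inhibitor, with log2 fold changes of 0.69 and 0.60 in the edgeR fit and no overlap (edgeR adjusted p = 0.102 and 0.0607). The log2 fold change was positive for 10 of the 13, beside 52.6% of all genes tested, with a median of 0.31. The summed level of the 13 was 3136 to 3707 CPM in Bnc1+/+ and 3376 to 4617 CPM in Bnc1tr/tr ovaries, with an overlap. Foxl2, a transcription factor that defines granulosa cells, was at 151 ± 12.6 CPM in Bnc1+/+ and 124 ± 10.8 CPM in Bnc1tr/tr ovaries with no overlap (SD, n = 3 each). Its log2 fold change was -0.29, with an interval from -0.52 to -0.059 (edgeR adjusted p = 0.127). Cyp19a1 (-0.79) and Nr5a2 (-0.17) also had negative log2 fold changes, with overlapping ovaries. Fshr, the receptor of follicle-stimulating hormone, had a log2 fold change of 0.48 (edgeR adjusted p = 0.225). The genotypes did not overlap for 4 of the 13 markers, 3 higher and 1 lower, beside 30.8% of all genes tested. When libraries were scaled to the geometric mean of the 13 markers in place of TMM, an alternative added after seeing the data, the log2 fold change of Amh was 0.81 and was still called (edgeR adjusted p = 0.0238), whereas that of Amhr2 was 0.39 and was not (edgeR adjusted p = 0.238). This scaling placed the median of all genes at -0.21.

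Of 12 oocyte markers, 3 were called by edgeR and 5 by DESeq2, all higher, among them the list genes Gdf9 and Bmp15. The summed level of the 12 was 586 to 759.6 CPM in Bnc1+/+ and 726 to 1101 CPM in Bnc1tr/tr ovaries. Their log2 fold change was positive for 10 of the 12, beside 52.6% of all genes tested, with a median of 0.35. It was 0.080 for Nlrp5, -0.026 for Figla and -0.071 for Ddx4. Zp2 (0.22) and Zp3 (0.31) overlapped between the genotypes. Of 9 corpus luteum markers, 8 were called, all lower, with sums of 23355 to 28072 CPM in Bnc1+/+ and 7340.0 to 12697 CPM in Bnc1tr/tr ovaries. Over all genes tested, edgeR called 2.88% higher and 4.19% lower. Of the 5 theca, 8 oviduct, 5 stroma, 5 surface epithelium and 5 macrophage markers 0 were called by edgeR, with an unadjusted p under 0.05 for 2, 1, 2, 0 and 1 genes. DESeq2 called 2, 1, 2, 0 and 0 of them, beside 12.5% of all genes tested, and limma-voom 0. Oviduct markers summed to 518 CPM in Bnc1tr/tr replicate 3, the ovary with the highest Amh, and to at most 139.8 CPM in the others. Without that ovary the log2 fold change of Amh was 0.87 (edgeR adjusted p = 0.073). Other single ovaries also stood out. The granulosa marker Cyp19a1 was at 53.8 CPM in Bnc1+/+ replicate 4 and at 10.1 and 9.59 CPM in Bnc1+/+ replicates 1 and 7. For the theca marker Cyp17a1 these were 124, 8.62 and 21.6 CPM. Cyp17a1 was at 235 CPM in Bnc1tr/tr replicate 1 and at 3.66 and 5.46 CPM in Bnc1tr/tr replicates 2 and 3. The low ovary of its genotype for Amh, Bnc1tr/tr replicate 2, had the lowest granulosa and oocyte sums of its genotype and the highest corpus luteum sum. Bnc1tr/tr replicate 3, the highest for Amh, had a lower granulosa sum (4051 CPM) than Bnc1tr/tr replicate 1 (4617 CPM). Among Bnc1+/+ ovaries, replicate 4, the highest for Amh, had the highest granulosa sum but also the highest corpus luteum sum. Bnc1+/+ replicate 1, the lowest for Amh, had the highest oocyte sum and the lowest corpus luteum sum of its genotype. The part of any of these cell types in the rise of Amh and Amhr2 was not tested. The granulosa marker scaling is no such test, because markers in its mean, such as Slc18a2, themselves differed between the genotypes. Fits without single ovaries test no cell type.

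**Figure D4:**
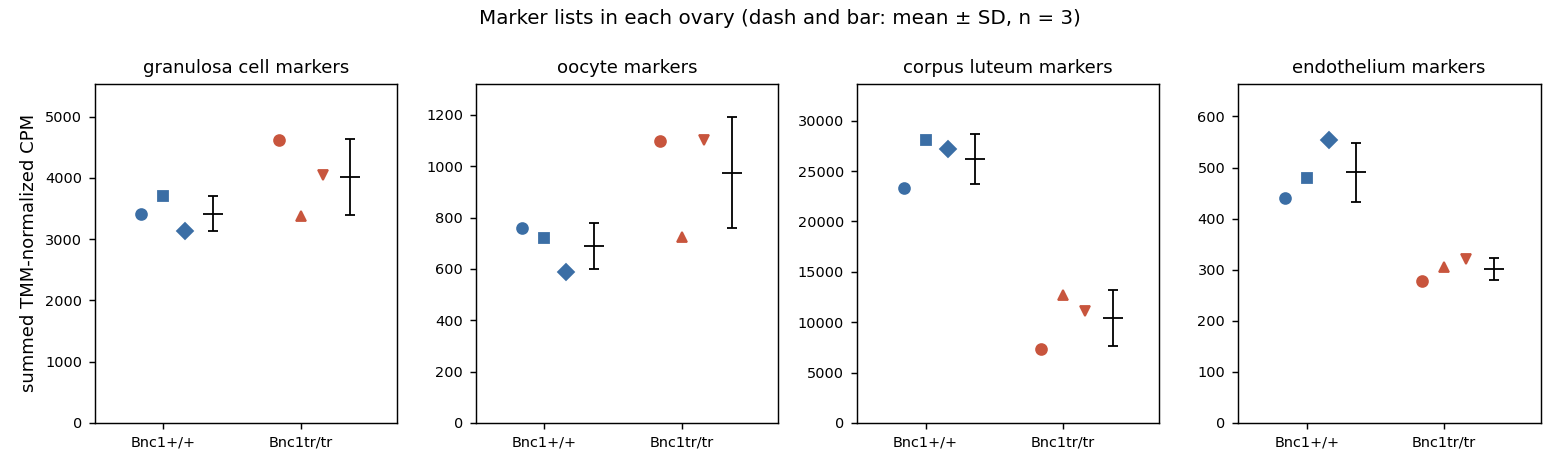
Summed TMM-normalized CPM (vertical axes, each from 0) of 4 marker lists in each ovary, with the same symbols as in the plot of the members by ovary; the dash and bar give the mean ± SD (n = 3). The corpus luteum and endothelium sums are lower in every Bnc1tr/tr ovary than in every Bnc1+/+ ovary, and for the granulosa cell and oocyte lists Bnc1tr/tr replicate 2, at 3376 and 726 CPM, falls within the Bnc1+/+ range.

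Genes with patterns most like that of Amh over the 6 ovaries were searched among 13079 tested genes with a mean of at least 5 CPM, by the mean absolute difference between their log2 deviations from their own mean. The 5 closest were Cd164l2, Gsta2, Mybpc3, Smagp and Ccdc69, at differences of 0.135 to 0.143, where Amh itself deviated from its mean by 0.517 on average. Gsta2 belongs to a family of near-identical paralogs, so its counts are uncertain. Amhr2 and Inha were not among the 5. For Inhba the closest were Rapsn, Gm3873, Relt, Zfp750 and Gm5643, at 0.134 to 0.154, with 0.350 for Inhba itself. These patterns rest on 6 libraries that share their scaling, and are given as a description.

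**Figure D5:**
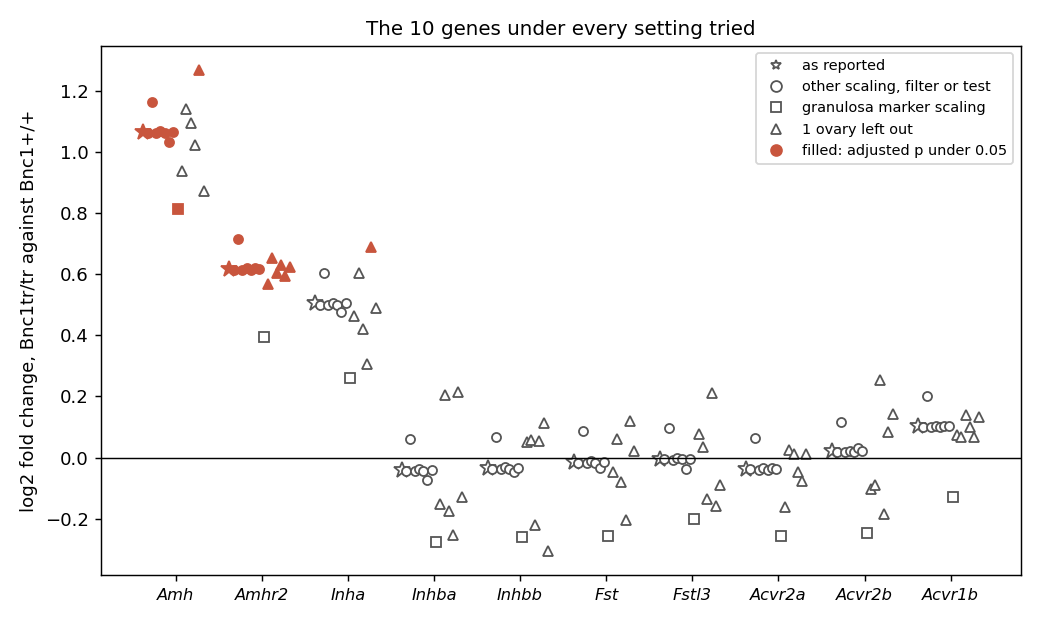
Log2 fold change (vertical axis) of each member under the reported fit (stars), under other scalings, filters and tests (circles), with granulosa marker scaling (squares) and with 1 ovary left out (triangles); filled symbols have an adjusted p under 0.05. Amh, Amhr2 and Inha lie above 0 under every setting drawn, Amh is filled in 1 of its 6 triangles and Amhr2 in all 6, and the other 7 members scatter around 0 with no filled symbol.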

How the data were processed

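Total RNA of the ovaries was extracted with TRIzol, and single-end libraries made with an Ion Total RNA-Seq kit were sequenced with the Ion Proton system. What the authors deposited are raw read counts per gene symbol, whole numbers that carry no normalization. Aligner, counting tool and annotation are not given in the sources used here; the submitters' processing notes name the builds mm10 and Sscrofa10.2 (a pig build) without their roles. Positions, exons and lengths came from GENCODE M21 (GRCm38, the assembly called mm10), with the principal transcript of the longest coding sequence used for lengths.

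Genes were filtered with filterByExpr (minimum count 10), scaled with TMM and fitted with glmQLFit and glmQLFTest of edgeR 4.0.16 in R 4.3.3 with genotype as the only term. Tests were two-sided and adjusted by the Benjamini-Hochberg method across 19423 genes. Standard errors were taken from the log2 fold change and the F statistic. No set test was run. Totals were 25247770 to 34406296 counts. The counts of the tested genes, scaled by TMM, set the precision, at 0.0302 to 0.0385 CPM per read. Replicates of a genotype differed by more than counting error (chi-square per degree of freedom 15.6 to 58.5), so none was a copy of another library. This cannot tell whether samples came from different mice. DESeq2 1.42.0, limma-voom (limma 3.58.1), other scalings and filters, and the omission of each ovary served as alternatives. Marker symbols missing from the table were matched through RefSeq synonyms (2 genes).

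Genes named in the text were all members, pathway genes past the threshold or among the 5 most abundant, and the 5 genes most like Amh and Inhba. Tgfbr3, other SMAD genes, Ski, Skil, Bmpr1a, Bmpr1b, Acvr1, Id2 and the markers were named after their values were seen. The rule for the members used no measured value, but the members, the lists and the tests were chosen with earlier results of these data known.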

Additional observations from a re-analysis of the deposited data

How the results depend on the processing

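The direction of Amh, Amhr2 and Inha was the same under all 14 alternatives, with log2 fold changes of 0.81 to 1.27, 0.39 to 0.72 and 0.26 to 0.69; Amh was called under 9, Amhr2 under 13 and Inha under 1. Granulosa marker scaling, added after seeing the data, left 1 member called in place of 2. With library size as the only scaling, which placed the median of all genes at 0.12, log2 fold changes short of the threshold turned positive for Inhba (0.061), Inhbb (0.069), Fst (0.087), Fstl3 (0.098) and Acvr2a (0.063), and with granulosa marker scaling they turned negative for Acvr2b (-0.25), Acvr1b (-0.13) and Bnc1 (-0.13). Of 1372 genes called, 559 were higher in Bnc1tr/tr ovaries; with library size only these were 1112 of 1728, and with granulosa marker scaling 254 of 1251. DESeq2 called 2420 genes (12.5% of those tested) in place of 1372, and 9 of the other pathway genes in place of 4.

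With single ovaries omitted, 320 to 1282 genes were called (320 without Bnc1+/+ replicate 4, 518 without Bnc1+/+ replicate 7, 634 without Bnc1tr/tr replicate 3 and 781 without Bnc1+/+ replicate 1), 1 to 3 members and 1 to 4 of the other pathway genes. Members short of the threshold changed sign within ranges of -0.25 to 0.21 for Inhba, -0.31 to 0.11 for Inhbb, -0.20 to 0.12 for Fst, -0.16 to 0.21 for Fstl3, -0.16 to 0.026 for Acvr2a and -0.18 to 0.25 for Acvr2b, and so did Bnc1 (-0.10 to 0.26). The log2 differences of the ratios ranged from 0.29 to 0.71 for Inha over the beta subunits, -0.20 to 0.26 for Fst over the beta subunits, -0.31 to 0.14 for Inhba over Inhbb and 0.23 to 0.68 for Amh over Amhr2. The coding length, or Inhba alone as the beta subunit, kept the direction of the ratios they applied to. The causes were not tested. No paired analysis was possible because the genotypes share 1 replicate number only and the labels tie no ovary to a litter.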
